A study of Mus musculus with 6 samples.

Results

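The largest of the 7 deposited clusters of a Th9 culture, cluster 0, is described here: CD4 T cells with high Tmem176a, Tmem176b, Dapl1, Il2, Trat1 and Jaml transcripts and little Il9. Its members are all cells that the deposited cell table assigns to cluster 0, which are 11485 of 27258 cells. Naive CD4 T cells from mouse spleen were cultured for 48 h towards the IL-9-producing fate with human TGF-beta at 3 ng/ml, IL-4 at 20 ng/ml and an anti-IFN-gamma antibody at 20 µg/ml, and CD4+ cells were then taken with beads for 10x 3′ single-cell sequencing. The tested cultures came from Cblb-/- mice (KO, 3 libraries, called D, E and F) and the other cultures from wild-type mice (WT, 3 libraries, called A, B and C), all under the same conditions. Cluster 0 held 1814, 2643 and 2985 cells of KO libraries D, E and F, and 1226, 1362 and 1455 cells of WT libraries A, B and C. The genotype of each library was taken from the cell table; which labelled replicate each library is cannot be told from its name. The labels do not say that the replicates were separate mice or separate cultures, so that p-values measure the spread between these libraries, which may be technical.

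A helper T cell that has met antigen and a costimulus transcribes Il2 through NFAT, AP-1 and NF-kB. The IL-2 it secretes binds the receptor made of IL2RA (CD25), IL2RB and the common gamma chain and activates STAT5, which in turn represses Il2. In Th9 cultures IL-4 acts through STAT6 and TGF-beta through SMAD proteins, and STAT5 signalling supports Il9. CBL-B is a ubiquitin ligase that restrains T cell receptor and costimulatory signalling. TMEM176A and TMEM176B are membrane channel-like proteins of the MS4A superfamily, whose genes are known from dendritic cells and RORgt+ lymphocytes. DAPL1 is a small protein of naive and long-lived T cells, TRAT1 (TRIM) is an adaptor that binds the T cell receptor complex, and JAML is an adhesion molecule that binds the junctional protein CAR.

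Values are the authors' depth-corrected counts per cell, summed over the cluster 0 cells of a library and expressed as parts per 1000000 of that sum (ppm). Median raw depth in cluster 0 was 35428 to 39630 UMIs per cell in KO libraries and 37567 to 39013.5 in WT libraries, and the median mitochondrial share was 4.47 to 5.07% in KO and 4.78 to 5.01% in WT libraries. Of all cells, 152 share a barcode with a cell of another library, 65 of them in cluster 0. Cluster 0 cells are T cells by their markers: the 6 CD4 T cell genes summed to 1862 to 2005 ppm in KO and 2176 to 2266 ppm in WT libraries. The mast cell genes Fcer1a and Ms4a2 had no count in cluster 0, against 68.3 and 195 ppm in the 24 cells of cluster 6. The NK list summed to at most 0.263 ppm in KO and 0.0962 ppm in WT libraries. The B cell list summed to 9.74 to 11.01 ppm in KO and 3.74 to 3.99 ppm in WT libraries, carried by Cd79b (4.65 to 8.26 ppm in KO, 2.23 to 2.71 ppm in WT) and Ebf1 (2.40 to 4.55 ppm in KO, 0.56 to 1.05 ppm in WT), while Ms4a1 stayed under 0.1 ppm in every library. The regulatory T cell list summed to 467.2 to 674.7 ppm in KO and 357.7 to 390.3 ppm in WT libraries. Within it Foxp3 was at 1.49 to 3.25 ppm in KO and 3.73 to 4.95 ppm in WT libraries. Il2ra went the other way, at 266 to 387 ppm in KO and 165 to 170 ppm in WT libraries, and Ctla4, Ikzf2 and Nrp1 overlapped between genotypes.

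The 6 defining genes were compared between clusters as a description only, because every gene helped to draw the clusters. Tmem176a (chr6:48840919-48847071, plus strand, mm10) averaged 115.7 ± 31.2 ppm in cluster 0 against 54.1 ± 11.7 ppm in clusters 1 to 5 of KO libraries, and 136.3 ± 2.06 against 41.8 ± 2.86 ppm in WT libraries (SD, n = 3 each). Il2 (chr3:37120523-37125959, minus strand) averaged 580.0 ± 70.2 ppm in cluster 0 against 383.5 ± 107.5 ppm in clusters 1 to 5 of KO libraries, and 564.6 ± 25.2 against 210.7 ± 8.83 ppm in WT libraries. Cluster 0 held 60.8 to 64.4% of a KO library's corrected Il2 counts and 54.7 to 56.8% of a WT library's. For Tmem176a these shares were 66.8 to 71.6% in KO and 59.1 to 62.1% in WT libraries, and for Il9 only 3.57 to 5.42% in KO and 1.91 to 2.95% in WT libraries.

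On the mean over libraries, none of the 6 genes except Trat1 was highest in cluster 0. Cluster 4, with 1258 cells, exceeded cluster 0 in all 6 libraries for Tmem176a, Tmem176b, Dapl1, Il2 and Jaml. Il2 was at 1347.0 ± 240.4 ppm in cluster 4 of KO libraries and 947.4 ± 36.3 ppm in cluster 4 of WT libraries. Il2 was also higher in cluster 3, with 1891.0 ± 754.3 ppm in KO and 645.2 ± 66.3 ppm in WT libraries. Trat1 (chr16:48730774-48772021, minus strand) was higher in cluster 0 than in cluster 4 in 5 of 6 libraries, the difference being 0.24 on the log2 scale. In KO libraries Trat1 in cluster 3 lay in the same range as in cluster 0. The defining genes therefore mark cluster 0 off from clusters 1, 2 and 5 and are shared with cluster 4, and Il2 also with cluster 3.

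**Figure D1:**
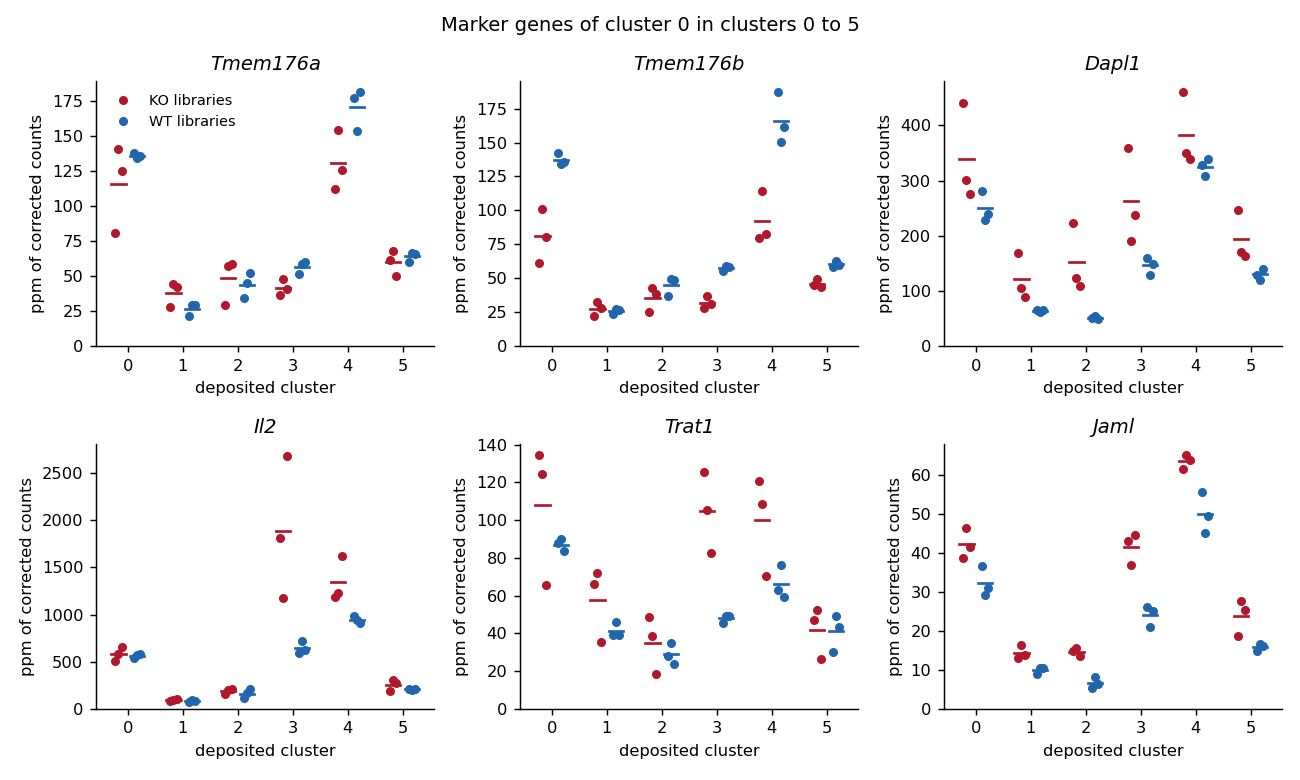
Level of the 6 defining genes in ppm of corrected counts (linear axes from 0) in deposited clusters 0 to 5; red points are the 3 KO libraries and blue points the 3 WT libraries, with a line at the mean. Cluster 4 is as high as or higher than cluster 0 for 5 of the genes, and Il2 is also high in cluster 3.

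The promoter windows of the pair that names the cluster and of Il2 are shown because Tmem176a and Tmem176b share their start region and because Il2 transcription depends on NFAT. Each window runs from 250 bases before to 50 bases after a gene start (RefSeq, build GRCm38.p6), 5′ to 3′ on the gene's strand. There are 2 such windows for Tmem176a, 3 for Tmem176b and 1 for Il2, and the first listed is shown. Capitals mark matches to the letters TGGAAA, used here for NFAT, on either strand. Variants of these letters are not marked. The Tmem176a window is chr6:48841233-48841532 (plus strand), the Tmem176b window chr6:48841088-48841387 (minus strand) and the Il2 window chr3:37125905-37126204 (minus strand).
Tmem176a: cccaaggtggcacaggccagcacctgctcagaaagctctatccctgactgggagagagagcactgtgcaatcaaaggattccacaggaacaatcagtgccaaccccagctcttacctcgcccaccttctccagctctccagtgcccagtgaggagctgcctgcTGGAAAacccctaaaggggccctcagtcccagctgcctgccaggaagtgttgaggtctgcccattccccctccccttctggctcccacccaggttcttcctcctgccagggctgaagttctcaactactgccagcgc
Tmem176b: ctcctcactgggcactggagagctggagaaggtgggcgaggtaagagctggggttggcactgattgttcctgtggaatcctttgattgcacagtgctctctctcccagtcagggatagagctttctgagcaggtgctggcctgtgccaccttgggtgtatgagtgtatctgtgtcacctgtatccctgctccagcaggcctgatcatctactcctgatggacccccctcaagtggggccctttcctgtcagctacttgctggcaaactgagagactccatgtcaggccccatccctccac
Il2: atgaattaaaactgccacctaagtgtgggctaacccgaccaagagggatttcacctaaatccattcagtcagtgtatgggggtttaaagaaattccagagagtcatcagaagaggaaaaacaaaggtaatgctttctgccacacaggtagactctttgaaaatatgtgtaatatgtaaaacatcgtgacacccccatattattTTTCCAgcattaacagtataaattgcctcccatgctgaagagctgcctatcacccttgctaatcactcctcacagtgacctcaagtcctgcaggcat
By the starts of the windows shown, the 2 Tmem176 genes lie head to head, 346 bases apart, and these windows overlap by 155 bases. By their GENCODE coordinates the 2 genes overlap at their 5′ ends. The Tmem176a window holds 1 NFAT match and the Il2 window 1, printed as its reverse complement TTTCCA; the Tmem176b window holds none. The AP-1 letters TGANTCA, searched on both strands, are in none of the 3. Of all 32851 RefSeq windows of this length, 21.4% hold the NFAT letters and 7.81% the AP-1 letters, so that a single match is common and describes the letters of a window, not a bound site.

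The 2 Tmem176 transcripts went together from cell to cell but not in amount between genotypes. Across cluster 0 cells of 1 library their correlation was 0.79 to 0.81 in KO and 0.82 to 0.83 in WT libraries; it is given as a description, since both counts share the cell's depth. Tmem176b (chr6:48833818-48841496, minus strand) had 61.2, 101.2 and 80.4 ppm in KO libraries D, E and F, against 142.0, 134.0 and 135.5 ppm in WT libraries A, B and C. All KO libraries lay below all WT libraries, and Tmem176b fell by 0.78 on the log2 scale (SE 0.15, limma adjusted p = 0.0101). Tmem176a and Tmem176b both helped to draw the cluster, and the part of that in their genotype differences was not tested. Tmem176a had 80.7, 140.9 and 125.4 ppm in KO libraries, against 138.3, 134.2 and 136.3 ppm in WT libraries. KO library D was low and KO library E was above every WT library, so the groups overlapped (log2 difference -0.27, SE 0.17, adjusted p = 0.284). The ratio of Tmem176b to Tmem176a counts was 0.758, 0.718 and 0.641 in KO libraries and 1.03, 0.999 and 0.994 in WT libraries, without overlap. In clusters 1 to 5 the ratio averaged 0.727 ± 0.0552 in KO and 0.98 ± 0.0712 in WT libraries (SD, n = 3 each; in both cell sets exact 2-sided permutation p = 0.1, the smallest that 3 against 3 allow). Outside cluster 0, too, the ratio was lower in every KO library than in every WT library.

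The genes whose level over the 36 cluster-by-library sums of clusters 0 to 5 was most like that of Tmem176a were Tmem176b (Pearson r = 0.962), Slc2a6 (0.855), Nptn (0.840), Tmtc4 (0.801) and Ctsb (0.801), out of 8130 genes ranked. Sums of 1 library share its depth and preparation, so no p is given. Tmem176a stood apart from Il2 in single cells: their correlation within cluster 0 ranged from -0.04 to 0.05 over the 6 libraries, and that of Il2 with Dapl1 from -0.05 to 0.07.

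Il2 was unevenly spread over the cells of cluster 0. The median cell had 3.5, 8 and 8 corrected Il2 counts in KO libraries D, E and F, against 10, 13 and 11 in WT libraries A, B and C. The 95th percentile was 92, 89 and 105 counts in KO libraries and 78.5, 75 and 79 in WT libraries. The 10% of cells with the most Il2 held 57.9, 47.9 and 50.8% of the cluster's Il2 counts in KO libraries, against 45.2, 40.2 and 42.9% in WT libraries. Each KO library thus had a lower median, a higher 95th percentile and a more uneven spread than every WT library, while the summed Il2 level was 511.4, 576.8 and 651.7 ppm in KO against 536.9, 570.7 and 586.1 ppm in WT libraries, with overlap (log2 difference 0.03, SE 0.08, adjusted p = 0.806).

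Beyond the defining genes, cluster 0 was highest against clusters 1 to 5 in Kcnk10, a potassium channel gene, in Ms4a4b, a T cell member of the MS4A family, in Filip1l (1.12), in Csf1 (0.996), which encodes the macrophage growth factor M-CSF, in Nrn1 (0.98), Cd5l (0.95) and Myh10 (0.94), and in Bcl6, the repressor of follicular helper T cells. Ms4a4b was 1.19 higher on the log2 scale, with 28.0 ± 5.60 ppm in cluster 0 against 10.8 ± 2.14 ppm in clusters 1 to 5 of KO libraries, and 22.5 ± 0.456 against 10.1 ± 1.45 ppm in WT libraries. Kcnk10 was at 18.6 ± 1.05 against 8.60 ± 0.979 ppm in KO and 10.5 ± 1.27 against 3.18 ± 0.528 ppm in WT libraries. Bcl6 was 0.92 higher, with 7.89 ± 0.799 against 3.78 ± 0.31 ppm in KO and 8.45 ± 0.837 against 3.87 ± 0.235 ppm in WT libraries. At least 2-fold differences in 1 direction in all 6 libraries were held by 9 genes that were higher and 21 that were lower in cluster 0, of 8469 genes (0.106% and 0.248%). These values are against clusters 1 to 5 pooled. The 6 named genes highest against cluster 4 alone, with 1 sign in all libraries, were Il13, Ccr7, Gpr146, Lmna, Ikzf4 and Batf3. None of the genes named above in this paragraph is among them.

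Against clusters 1 to 5 pooled, what cluster 0 lacked was larger than what it had. Il9, the cytokine of the culture, was at 60.5 ± 22.3 ppm in cluster 0 against 1459.0 ± 551.1 ppm in clusters 1 to 5 of KO libraries, and at 18.1 ± 3.98 against 324.6 ± 78.7 ppm in WT libraries, a difference of -4.32. Akr1c18, an aldo-keto reductase that inactivates progesterone, was 3.06 lower in cluster 0 (log2 difference -3.06). The chemokine genes Ccl3, Ccl20 and Ccl4 had differences of -2.23, -2.09 and -1.82. Socs2, an inhibitor of cytokine receptors that STAT5 induces, had a difference of -1.99, with 44.7 ± 2.30 against 153.2 ± 13.8 ppm in KO and 32.5 ± 0.476 against 155.0 ± 7.78 ppm in WT libraries. Foxp3 (-1.94) and Batf3 (-1.81), the AP-1 family factor, were also lower in cluster 0 in all 6 libraries. Low Il9 and Batf3 were shared with cluster 4. Batf3 was 0.90 higher in cluster 0 than in cluster 4, in all 6 libraries, and Il9 0.41 higher, in 5 of 6 libraries.

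Gene lists, compared with clusters 1 to 5 without a test, set cluster 0 in the same frame. Over all 8469 genes, 25.8% were higher and 19.8% lower in cluster 0 in all 6 libraries, and the median difference was 0.01. Of 17 genes of the STAT5 response, 11 were lower in all 6 libraries and 2 higher, with a median difference of -0.33; Socs2, Lta (-1.38), Il2ra (-0.77) and Bcl2 (-0.67) led. Of 20 ATF4 targets and amino acid supply genes, 20 were lower, with a median of -0.25, among them Trib3 (-0.56) and Asns (-0.43), the asparagine synthetase gene. Of 31 genes of MYC activity and ribosome biogenesis, 23 were lower and none was higher, with a median of -0.09. Of 19 cholesterol synthesis genes, 16 were higher and none was lower, with a median of 0.16; Nsdhl (0.34) and Hmgcs1 (0.31) led. Of 30 proximal T cell receptor signalling genes, 14 were higher and 4 lower. Of 16 naive and central memory genes, 7 were higher, led by Dapl1 and Slamf6 (0.80), and 4 were lower, led by Klf2 (-0.91), the factor of resting and recirculating T cells.

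Against single clusters the picture depended on the partner. Against cluster 1, the other large cluster with 9064 cells, 40 genes were at least 2-fold higher and 23 at least 2-fold lower in cluster 0 in all 6 libraries, and Il2 differed by 2.69, with 580.0 ± 70.2 against 94.7 ± 9.52 ppm in KO and 564.6 ± 25.2 against 82.1 ± 11.5 ppm in WT libraries. Foxp3 (-2.31) and Il9 (-2.17) were lower than in cluster 1. Against cluster 4 only 5 genes were at least 2-fold higher and 14 at least 2-fold lower. Ccl20 was far lower, at 18.6 ± 2.73 against 832.9 ± 65.1 ppm in KO and 11.6 ± 2.32 against 700.1 ± 10.4 ppm in WT libraries (-5.62). Ccr7, the lymph node homing receptor, was higher than in cluster 4, at 149.1 ± 19.5 against 57.9 ± 2.40 ppm in KO and 101.3 ± 2.76 against 58.3 ± 5.63 ppm in WT libraries (1.07).

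The comparison of Cblb-/- with wild-type cells was made within cluster 0, over libraries. Transcripts counted to Cblb (chr16:52031225-52208048, plus strand) were at 21.5, 17.1 and 20.4 ppm in KO libraries, against 38.5, 37.0 and 36.2 ppm in WT libraries, so that each library matched its genotype label (log2 difference -0.89, SE 0.08, adjusted p = 0.000791). The labels do not place the deleted part of the gene, and reads from a 3′ kit can come from outside it. Genes averaging 5 ppm or more entered the test; by limma at an adjusted p under 0.05, 1855 of these 8496 differed (21.8%), of which 770 were higher (9.06%) and 1085 lower (12.8%) in KO cells. With median-of-ratios scaling the split was 1022 higher and 829 lower. Of the called genes, 72 were at least 2-fold higher (0.847%) and 18 at least 2-fold lower (0.212%). The KO and WT libraries did not overlap for 42.5% of genes. Without 1 WT library the counts were smaller, at 344, 340 and 283 higher and 366, 436 and 314 lower without A, B and C, and without KO library E 1399 were higher.

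The genes with the largest rises were led by cytokines. Il13, a type 2 cytokine gene, was at 179.5, 13.1 and 47.3 ppm in KO libraries D, E and F, against 1.57, 1.0 and 1.12 ppm in WT libraries A, B and C (log2 difference 4.49, SE 0.74, adjusted p = 0.00637). All KO libraries were above all WT libraries, and the KO libraries differed among themselves by more than 10-fold. Few cells carried it: cells with at least 10 Il13 counts made up 10.4% (exact 95% interval 9.0 to 11.9), 1.4% (0.988 to 1.92) and 3.79% (3.13 to 4.53) of KO cells in D, E and F. In WT libraries A and B they made up 0.163% (0.0198 to 0.588) and 0.0734% (0.00186 to 0.408), and in C 0 of 1455 cells (0 to 0.253), where the limit that a count of 0 allows, 3 counts of the total, is 0.206%. These intervals cover counting error only. The KO cells with at least 10 counts held 91.98, 75.3 and 78.8% of the Il13 counts of D, E and F. Csf2, the gene of the growth factor GM-CSF, was at 43.9, 12.7 and 14.1 ppm in KO libraries, against 0.665, 0.308 and 0.434 ppm in WT libraries (3.85, SE 0.39, adjusted p = 0.00125).

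Il9 itself was low in cluster 0 but rose. It was at 68.9, 35.3 and 77.4 ppm in KO libraries, against 16.4, 15.1 and 22.6 ppm in WT libraries (log2 difference 1.63, SE 0.27, adjusted p = 0.00637). In clusters 1 to 5 pooled the difference of Il9 was 2.11, and the limma test of cluster 0 against them gave an adjusted p of 0.0503 for the gap of -0.48. Taken singly, clusters 1 to 5 had differences of 1.13, 0.46, 0.58, 1.36 and 2.49. Cluster 2 made up 18.9 to 38.3% of the pooled cells in KO and 5.65 to 8.6% in WT libraries, and its part in the Il9 gap was not tested. RNA free in the droplets can add Il9 counts, and its part in the difference within cluster 0 was not tested.

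The other genes of the 12 largest rises differed in kind. Gatm, of creatine synthesis, was at 41.3, 60.9 and 93.7 ppm in KO libraries, against 9.80, 6.54 and 9.79 ppm in WT libraries (2.71). Gzmb, the cytotoxic protease granzyme B, was at 19.4, 2.85 and 9.94 ppm in KO, against 0.472, 0.462 and 0.741 ppm in WT libraries (2.62). Nr4a2, an orphan nuclear receptor of the antigen response, was at 40.1, 22.6 and 44.1 ppm in KO, against 8.45, 6.85 and 7.66 ppm in WT libraries (2.03). The others were Ly6a (2.41), the neurotrophin receptor gene Ntrk3 (2.33), the activin subunit gene Inhba (2.29), Sema4f (2.15), the IL-1 receptor antagonist gene Il1rn (2.07), the calcium channel subunit gene Cacnb3 (2.07) and Casz1 (2.03). Ly6a, whose KO values ranged from 3.08 to 28.7 ppm against 0.212 to 2.06 ppm in WT libraries, lost its call without A, B, C or D, and Sema4f lost it without C.

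The 12 named genes with the largest falls include the interferon-inducible Mndal and Ifi203. These 2 genes overlap on the minus strand of chromosome 1, and the counting may not separate their reads. Mndal was at 1.64, 2.10 and 1.17 ppm in KO libraries, against 11.3, 10.9 and 10.2 ppm in WT libraries (log2 difference -2.17, adjusted p = 0.000121). Ifi203 differed by -1.84, and Trmo, a tRNA methyltransferase gene, by -1.94. Nt5e, which encodes the adenosine-producing enzyme CD73, was at 9.39, 22.2 and 12.8 ppm in KO, against 41.7, 34.7 and 39.9 ppm in WT libraries (-1.41). Klf2 was at 3.30, 4.20 and 3.19 ppm in KO, against 9.95, 10.7 and 7.66 ppm in WT libraries (-1.19). Lax1, an adaptor that dampens antigen receptor signals, was at 3.65, 4.61 and 2.55 ppm in KO, against 9.35, 9.68 and 8.36 ppm in WT libraries (-1.16). Trib2 (-1.32), Nsg2 (-1.27), Pdlim5 (-1.12) and the histone genes Hist1h2bj (-1.34) and Hist1h3a (-1.14) completed the group with Klrb1f (-1.16), which lost its call without each of A, B, C, D and F in turn. Trmo and Klf2 fell by about as much in clusters 1 to 5 (-1.95 and -1.27).

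**Figure D2:**
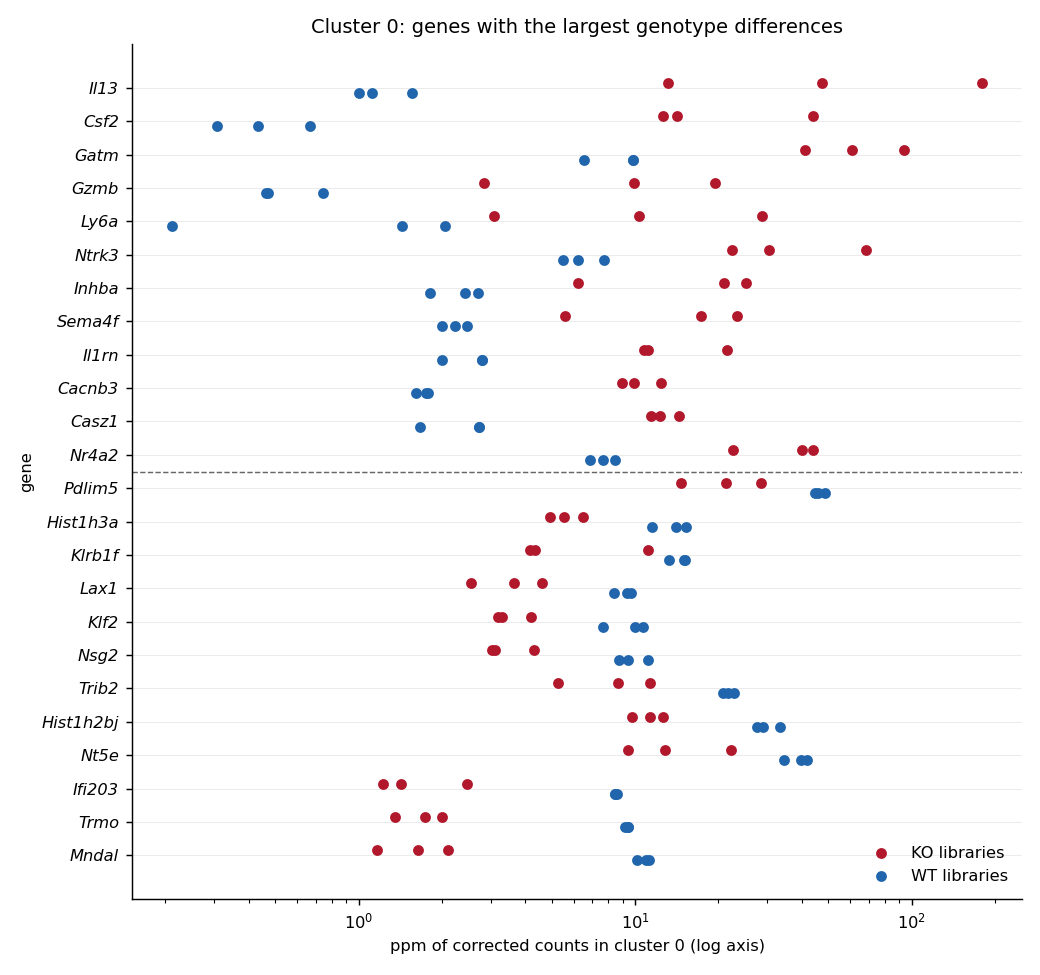
Level in cluster 0, in ppm of corrected counts on a log axis, of the 12 genes with the largest called rises (above the dashed line) and the 12 with the largest called falls (below it) in KO against WT libraries; each red point is a KO and each blue point a WT library. Only genes whose KO and WT points do not overlap were chosen for the figure, and the KO points of Il13, Gzmb and Ly6a are the most spread.

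The other defining genes moved less. Jaml (chr9:45079183-45108534, plus strand) was at 38.6, 46.3 and 41.4 ppm in KO libraries, against 36.7, 29.2 and 31.0 ppm in WT libraries. It rose by 0.38 on the log2 scale (SE 0.10, adjusted p = 0.0270), and lost the call without B, C or F. Dapl1 (chr2:59484653-59505020, plus strand) was at 440.4, 300.7 and 274.9 ppm in KO, against 281.8, 228.8 and 239.8 ppm in WT libraries, where D was highest and F lay below A (0.41, SE 0.16, adjusted p = 0.103); it was called as higher without F (0.55, adjusted p = 0.0495). Trat1 was at 134.7, 124.6 and 65.6 ppm in KO, against 88.0, 89.8 and 83.5 ppm in WT libraries. KO library F lay below and D and E above every WT library (0.24, SE 0.23, adjusted p = 0.468), and Trat1 was called as higher without F. Trat1 lies on chromosome 16, as does Cblb.

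Some genes of the IL-2 receptor and of the STAT5 response rose, although Il2 did not pass the test. The counts of this and the next lists are set against 9.06% of all genes higher and 12.8% lower in KO cells. Of 8 IL-2 pathway genes tested, 3 rose and none fell, with a median of 0.19 against -0.02 over all genes. Il2ra was at 368.8, 266.2 and 387.3 ppm in KO libraries, against 165.1, 167.4 and 169.6 ppm in WT libraries (log2 difference 1.0, SE 0.12, adjusted p = 0.00224). Stat5a (0.31) and Il2rg (0.19) rose by less, while Il2rb (0.20, limma adjusted p = 0.354), Jak1, Jak3 and Stat5b did not pass. Without A, B or C, 1 of the 8 genes was called. Of 16 STAT5 response genes, 9 rose and none fell (median 0.29): Gzmb and Il2ra, the feedback inhibitor Socs1 (0.96), the cytokine Osm (0.75), the cyclin Ccnd2 (0.59), Socs2 (0.45), Tnfrsf4 (0.45), Pim1 (0.31) and Bcl2l1 (0.26). Without C, 5 rose. Of 8 IL-4 and STAT6 response genes 4 rose and none fell, led by Socs1 and Gfi1 (0.90), and without A, B or C 2 rose. Each list shares its members' cells with the others, and Il2ra is also among the regulatory T cell markers, whose sum was 467.2 to 674.7 ppm in KO and 357.7 to 390.3 ppm in WT libraries.

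Genes of the proximal T cell receptor apparatus moved both ways, with more falls. Of 30 tested, 4 rose and 10 fell (median -0.11), against 9.06% of all genes higher and 12.8% lower. The count of rises is near that share. Themis (0.49), Cd5 (0.36) and Ubash3b (0.25) were among those that rose. Among those that fell were Ubash3a (-0.43), the diacylglycerol kinase genes Dgka (-0.41) and Dgkz (-0.27), Rasgrp1 (-0.38), Zap70 (-0.25), Cd3e (-0.34), Cd3g (-0.21), Cd4 (-0.24) and Ptpn22 (-0.20). Of 7 transmembrane adaptor genes and their partners, 4 fell and none rose: Lax1, Skap1 (-0.44), Sit1 (-0.39) and Ptpn22. The counts fell to 6, 6 and 5 lower receptor genes without A, B and C, 1 higher without each of these and 2 higher without D, and to 2 adaptor genes without A or B.

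Of 25 immediate early genes of NFAT and AP-1, 9 rose and 3 fell (median 0.13), against 9.06% of all genes higher and 12.8% lower. The count of falls is near that share. Nr4a2, Ier3 (1.57), the AP-1 genes Fosl2 (1.46), Atf3 (1.31), Batf (0.69), Junb (0.65), Jun (0.47) and Jund (0.19) and the phosphatase gene Dusp1 (0.42) rose. Egr1 (-0.57) and Egr3 (-0.56), zinc finger factors of the receptor response, and the phosphatase gene Dusp2 (-0.30) fell. Egr2 (0.13), Nr4a1 (0.36) and Fos (0.42) had positive differences that did not pass the test (adjusted p = 0.130, 0.0616 and 0.0533). Egr1 was at 28.4, 36.9 and 29.6 ppm in KO, against 40.9, 50.6 and 50.2 ppm in WT libraries. Without C, 4 rose, and without B or C none fell. Of 20 NF-kB genes 9 rose and 1 fell (median 0.24), with Bcl3 (1.03), Traf1 (0.86) and Nfkb2 (0.74) ahead and Nfkbiz (-0.33) lower; 5 rose without A and 4 without B, and none fell without A, B or C. Of 11 TNF family ligands 5 rose and none fell, led by Cd70 (1.84), at 18.0, 13.5 and 13.4 ppm in KO against 3.88, 3.16 and 3.23 ppm in WT libraries. Without A, B or C 2 of these rose, and without F 3.

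Among 19 Th9, Th2 and lineage factors, 8 rose and 4 fell, against 9.06% of all genes higher and 12.8% lower. Zeb2 (1.61), a factor of terminal effector cells, was at 14.8, 12.3 and 14.4 ppm in KO, against 4.05, 3.98 and 3.50 ppm in WT libraries. Batf3 (1.61), Batf, Rora (0.67), Ikzf4 (0.58), Runx3 (0.57), Bhlhe40 (0.53) and Stat6 (0.22) also rose. Ahr (-0.96), Id2 (-0.77), Id3 (-0.61) and Tcf7 (-0.29) fell; Id2 was at 107.2, 124.2 and 97.0 ppm in KO, against 186.0, 189.4 and 184.4 ppm in WT libraries. Without B or C, 5 rose and 2 fell. Of 16 naive and central memory genes 4 rose, namely Satb1 (0.74), Il7r (0.68), Ccr7 (0.54) and Txnip (0.36), and 5 fell, namely Klf2, Slamf6 (-0.85), Id3, Tcf7 and Foxp1 (-0.25). Without A, B and C 2, 1 and 1 of them rose, without E 7 rose, and without B or C 3 fell. Of 13 activation surface genes 5 rose, among them Tnfrsf9 (0.92) and Lag3 (0.38), and 4 fell: Nt5e, Icos (-0.65), Cd69 (-0.62) and Pdcd1 (-0.33). The 5 rises became 3 without A or F and 1 without B or C. Of 14 cytokine and chemokine genes 6 rose, with Penk (1.41), Ccl20 (0.65) and Tnf (0.35) beside Il13, Csf2 and Il9, and Il16 (-0.43) fell, a call lost without A, B or C.

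The metabolic and housekeeping lists are read against the 9.06% of all genes that were higher and the 12.8% that were lower. Of 20 ATF4 targets and amino acid supply genes 10 rose and none fell (median 0.37), led by Cth (1.64) and Asns (1.36); Asns was at 189.8, 149.5 and 103.7 ppm in KO, against 67.3, 66.8 and 37.3 ppm in WT libraries. Without B, 6 rose, and without C, 4. Of 15 histone genes of the replication-dependent clusters 11 fell and none rose (median -0.55). They form a gene family with near-identical copies and mostly lack poly(A) tails, so that counts per gene are uncertain. Of 17 endoplasmic reticulum chaperone genes 10 fell and none rose, led by Pdia3 (-0.60), at 117.6, 134.2 and 150.9 ppm in KO against 207.5, 186.4 and 215.2 ppm in WT libraries; 6 fell without A and 5 without C. Of 19 cholesterol synthesis genes 6 fell and none rose, led by Dhcr7 (-0.73), at 16.6, 13.8 and 15.6 ppm in KO against 25.2, 25.04 and 27.6 ppm in WT libraries. Of 49 nuclear respiratory chain genes 23 fell and 1 rose (median -0.14), and the largest fall was that of Atp5j (-0.34). With median-of-ratios scaling 9 fell, and without A, B, C and D 6, 5, 3 and 12 fell. Of 16 glycolysis genes 1 rose, Hk2 (0.79), a share below that of all genes, and none fell; none rose without A, B or C, and 12 rose without E. Of 15 hypoxia response genes 4 rose, against 2 without A, B, C or D and 15 without E.

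**Figure D3:**
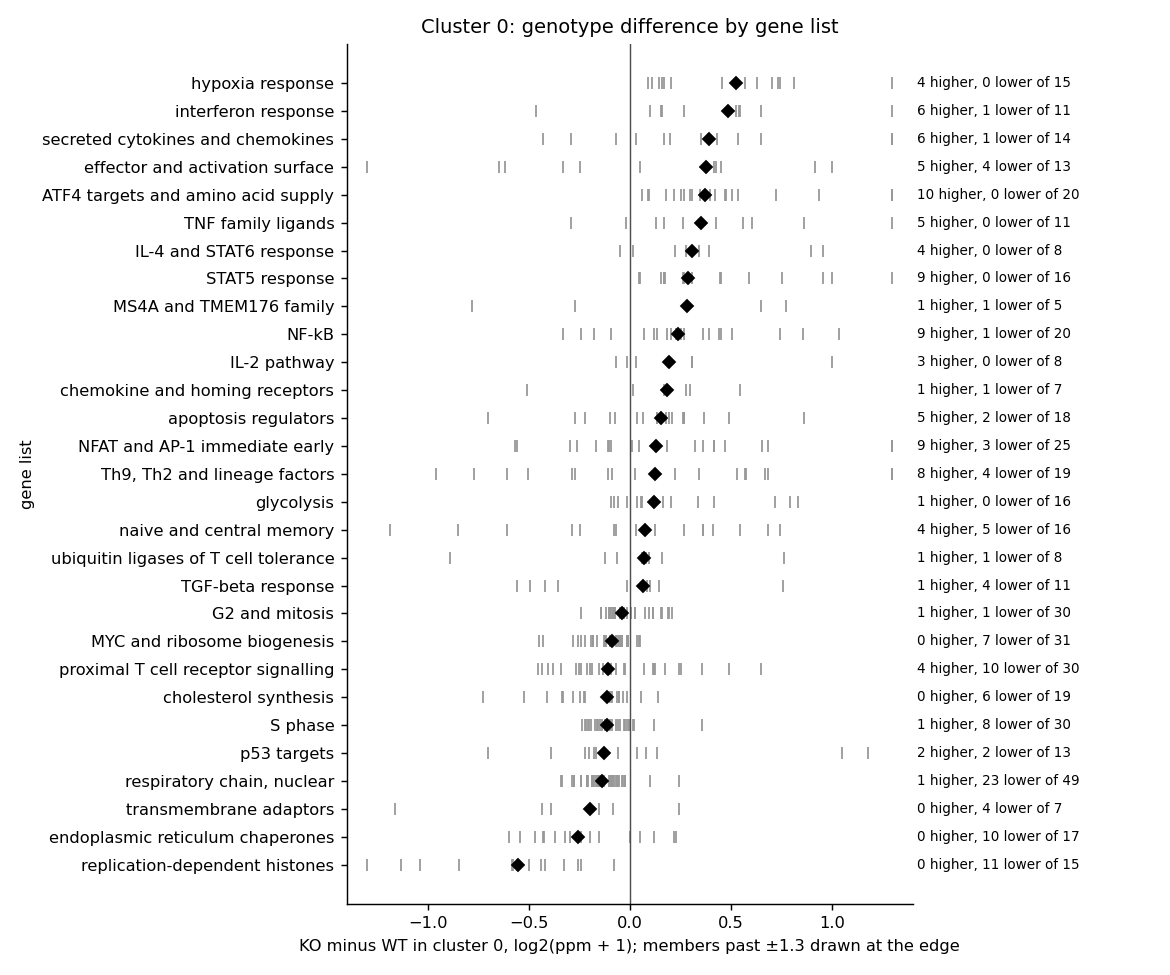
Genotype difference in cluster 0 by gene list: grey ticks are single genes and black diamonds the list's median of KO minus WT on the log2(ppm + 1) scale, with the number of genes called higher and lower of those tested at the right. The STAT5 response and ATF4 lists hold called rises and no called fall, and the chaperone and histone lists the reverse, while the members of most lists lie on both sides of 0.

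The remaining lists held fewer calls, and against the same shares of all genes the counts of 1 or 2 among p53 targets, ubiquitin ligases, MS4A genes and TGF-beta rises are near the background. Of 11 interferon response genes 6 rose, led by Zbp1 (1.97), and Ifi47 (-0.46) fell; 3, 2 and 3 rose without B, C and D. Of 11 TGF-beta response genes Pmepa1 (0.76) rose and 4 fell, among them the receptor gene Tgfbr1 (-0.56) and Smad2 (-0.42), and 2 fell without A, B or C. Of 18 apoptosis regulators 5 rose, led by Fasl (0.86) and Cflar (0.49), and the death gene Bcl2l11 (-0.70) and Bid (-0.27) fell; 2, 2 and 1 rose and none fell without A, B and C, and 8 rose without E. Of 31 MYC and ribosome biogenesis genes 7 fell and none rose; 3 fell without A, B or C and 4 without D. Of 30 S phase genes 8 fell and 1 rose, with 3 falls under median-of-ratios scaling and 2, 3, 1, 3 and 5 without A, B, C, D and F. Of 30 genes of G2 and mitosis 1 rose and 1 fell; none rose without A, B or C and 5 without E, and 3 fell without D and none without any other library. Of 13 p53 targets Cdkn1a (1.18) and Plk2 (1.05) rose and Trp53inp1 (-0.70) and Sesn1 (-0.39) fell; 1 rose without A, B or C, and 1 and none fell without B and C. Of 8 ubiquitin ligase genes of T cell tolerance, Nedd4 (0.77), which targets CBL-B for degradation, rose beside the fall of Cblb. Ms4a6b (0.77) rose beside the fall of Tmem176b among 5 MS4A and TMEM176 genes tested; none rose without A, B or C, and 3 rose without F.

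Whether a gene's genotype difference was the same in cluster 0 as in clusters 1 to 5 was tested on the within-library difference of the 2 cell sets. Of 8469 genes, 343 differed (4.05%), 124 with the larger value in cluster 0 (1.46%) and 219 with the smaller (2.59%). Of the 6 defining genes, 5 had a smaller value in cluster 0, but these genes helped to draw the cluster, and the part of that in the gaps was not tested. Il2 differed between KO and WT by 0.03 in cluster 0 and by 0.83 in clusters 1 to 5 (gap -0.79, SE 0.08, adjusted p = 0.000121). Against cluster 1 alone the Il2 gap was -0.18 and was not called (adjusted p = 0.114). The gap was -0.71 for Tmem176b, -0.62 for Tmem176a, -0.49 for Dapl1, -0.29 for Jaml and -0.16 for Trat1 (adjusted p = 0.159). With clusters 1 to 5 at equal weight the gap was -0.18 for Tmem176b, -0.08 for Tmem176a, -0.19 for Dapl1 and -0.17 for Jaml (adjusted p = 0.118, 0.706, 0.059 and 0.183), none of them called. Trat1 was called at equal weight (-0.30, adjusted p = 0.0251) and without D (-0.22). Jaml also lost its call without A, C, D or F. The mix of cells set against cluster 0 differs by genotype. Of the cells of clusters 1 to 5, cluster 4 made up 11.7 to 14.3% in KO libraries and 3.78 to 5.08% in WT libraries. Cluster 1 made up 39.3 to 58.4% in KO and 62.8 to 67.5% in WT libraries, and cluster 2 18.9 to 38.3% in KO and 5.65 to 8.6% in WT libraries. Cluster 3 made up 3.80 to 6.16% in KO and 12.8 to 13.05% in WT libraries, and cluster 5 4.86 to 5.13% in KO and 9.25 to 10.5% in WT libraries. With clusters 1 to 5 at equal weight 152 genes differed, of which 109 were among the 343. Against cluster 1 alone 314 differed, and against cluster 4 alone 27.

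Cluster by cluster, the KO minus WT difference of Il2 was 0.03, 0.21, 0.26, 1.48, 0.49 and 0.28 in clusters 0 to 5, so that cluster 0 had the smallest and cluster 3 by far the largest value. Tmem176b had -0.78, 0.09, -0.37, -0.83, -0.85 and -0.39 in clusters 0 to 5, with cluster 0 close to clusters 3 and 4. Cblb differed by -0.73 to -0.98 in all 6 clusters.

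**Figure D4:**
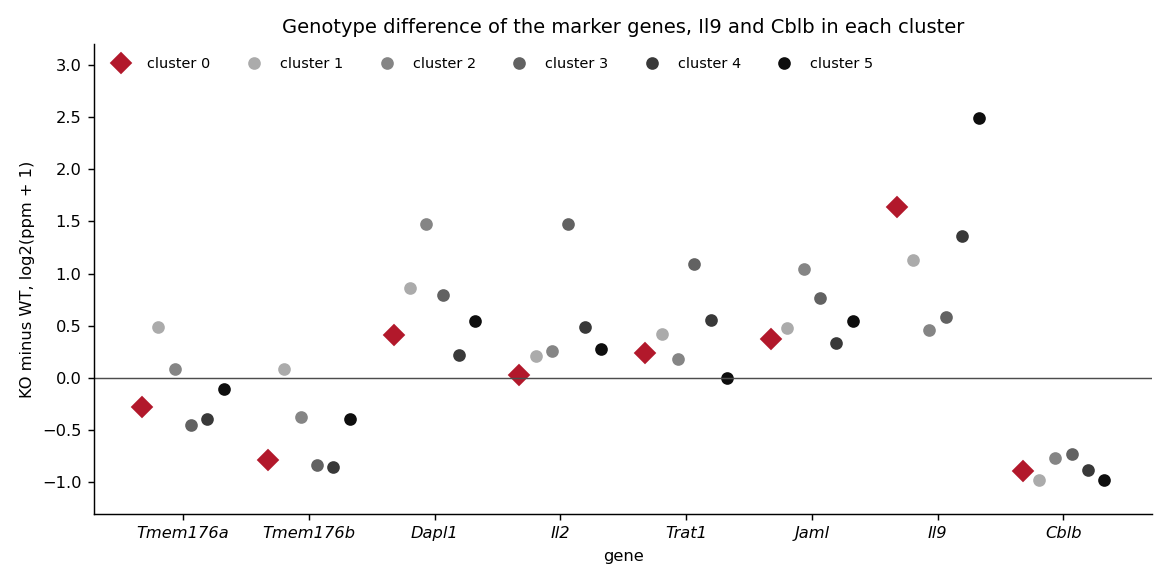
KO minus WT difference on the log2(ppm + 1) scale for the 6 defining genes, Il9 and Cblb; the red diamond is cluster 0 and the grey to black circles are clusters 1 to 5, each a difference of means of 3 libraries per genotype. Il2 is near 0 in cluster 0 and at 1.48 in cluster 3, while Cblb is between -0.73 and -0.98 everywhere.

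Other genes differed in their gap under the same test. Ccl20, the cluster 4 chemokine gene, had a gap of -1.06, and its sign turned with equal weights (0.33) and against cluster 4 (0.40). Id2 (-0.60), Gadd45g (-0.68), Cib2 (-0.70) and Klrb1f (-0.62) were also below 0. Above 0 were Xcl1 (1.13), the chemokine lymphotactin, Pkib (1.04), an inhibitor of protein kinase A, Mcub (0.92), a subunit that restrains the mitochondrial calcium uniporter, Fam46a (0.72), Efna5 (0.70), Gpr146 (0.67), Spsb1 (0.63) and Serpina3g (0.62). For Mcub the difference was 0.00 in cluster 0 and -0.92 in clusters 1 to 5. For Spsb1 it was 1.44 in cluster 0 and 0.82 in clusters 1 to 5. Pkib kept its call under every alternative that gave it a value, and had none against cluster 4 alone. Its KO minus WT difference was 1.04 in cluster 0 and 1.09 in cluster 4. Pkib averaged 6.95 ppm in KO and 2.85 ppm in WT libraries of cluster 0 and had no limma test of KO against WT there. Against cluster 4 alone, none of the other genes of this paragraph was called, and Mcub was at 0.16. Xcl1 lost its call without A, B or C (adjusted p = 0.170, 0.139 and 0.0645) and was at 0.15 at equal weight (adjusted p = 0.893). Fam46a, Efna5, Gpr146, Serpina3g and Klrb1f lost theirs with no filter on low values and with no trend in the prior variance, Id2 with no trend, Gpr146 without C, and Cib2 (-0.32) and Klrb1f (-0.35) at equal weight.

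Cells of cluster 0 with and without Il2 transcripts were compared within each library, with the library as a block. Cells with at least 1 corrected Il2 count numbered 1455, 2374 and 2752 in KO libraries D, E and F and 1083, 1262 and 1318 in WT libraries A, B and C, and cells with none numbered 359, 269 and 233 in KO and 143, 100 and 137 in WT libraries. A single corrected count makes a cell Il2-positive, and 83.3% of the 24 cluster 6 cells, where mast cell genes are high, had one, so the split is by counts and not by which cells express Il2. Of 8531 genes, 845 were higher (9.91%) and 853 lower (10%) in Il2-positive cells. Cells without Il2 had a higher median raw depth in all 6 libraries (medians of 35200.5 to 39397 UMIs in Il2-positive against 37189 to 42343 in Il2-zero cells of KO libraries, and 37472.5 to 38740 against 37876 to 42487 in WT libraries), and its part in the result was not tested beyond a restriction to cells near the median depth, under which 375 genes were lower.

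Genes of secreted and surface ligands were among those with the largest rises in Il2-positive cells. Cd40lg, the helper ligand of B cells and dendritic cells, was at 28.5 ± 5.99 ppm in Il2-positive and 7.28 ± 2.26 ppm in Il2-zero cells (SD, n = 6 libraries) and was higher in all 6 libraries by 1.37 to 2.58 (log2 difference 1.86, SE 0.11, limma adjusted p = 1.31e-10). Tnf was at 33.8 ± 6.17 against 13.7 ± 3.84 ppm (1.26), and Tnfsf9, the ligand of 4-1BB, at 20.5 ± 1.61 against 7.77 ± 1.94 ppm (1.32). Edn1 (1.78), Ccl4 (1.43), Pdgfb (1.09) and Il1a (1.08), all of secreted proteins, rose as well. The receptor-induced factors Egr3 (1.27), Nr4a1 (1.11) and Id3 (1.10), the kinase gene Plk3 (1.29) and the signalling inhibitor gene Spry1 (1.24) completed the 12 largest rises. Each was higher in 6 of 6 libraries.

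Of 16 naive and central memory genes 4 were higher in Il2-positive cells, namely Id3, Slamf6 (0.16), Bach2 (0.16) and Foxp1 (0.12), and 7 were lower (median -0.09), Ccr7 and Klf2 among them. Ccr7 was at 116.2 ± 24.8 ppm in Il2-positive and 192.1 ± 44.0 ppm in Il2-zero cells (-0.72, SE 0.03, adjusted p = 4.65e-13), with a difference of -0.65 to -0.85 in every library. Klf2 was at 5.95 ± 3.21 against 11.3 ± 5.61 ppm (-0.82), and Ikzf4, the Ikaros family factor Eos, at 21.6 ± 5.45 against 42.7 ± 11.4 ppm (-0.95). Gpr146 (-0.96), the interferon-induced Ifitm3 (-0.73), Ntrk3 (-0.70), Fam46a (-0.69) and Cacnb3 (-0.69) were lower too. The other defining genes of the cluster hardly differed: Tmem176a had 126.3 ± 21.7 against 124.7 ± 30.04 ppm (0.04, adjusted p = 0.543), Tmem176b -0.06, Dapl1 -0.03 and Trat1 -0.09, none past the test, and Jaml was higher by 0.21 (adjusted p = 0.00412).

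**Figure D5:**
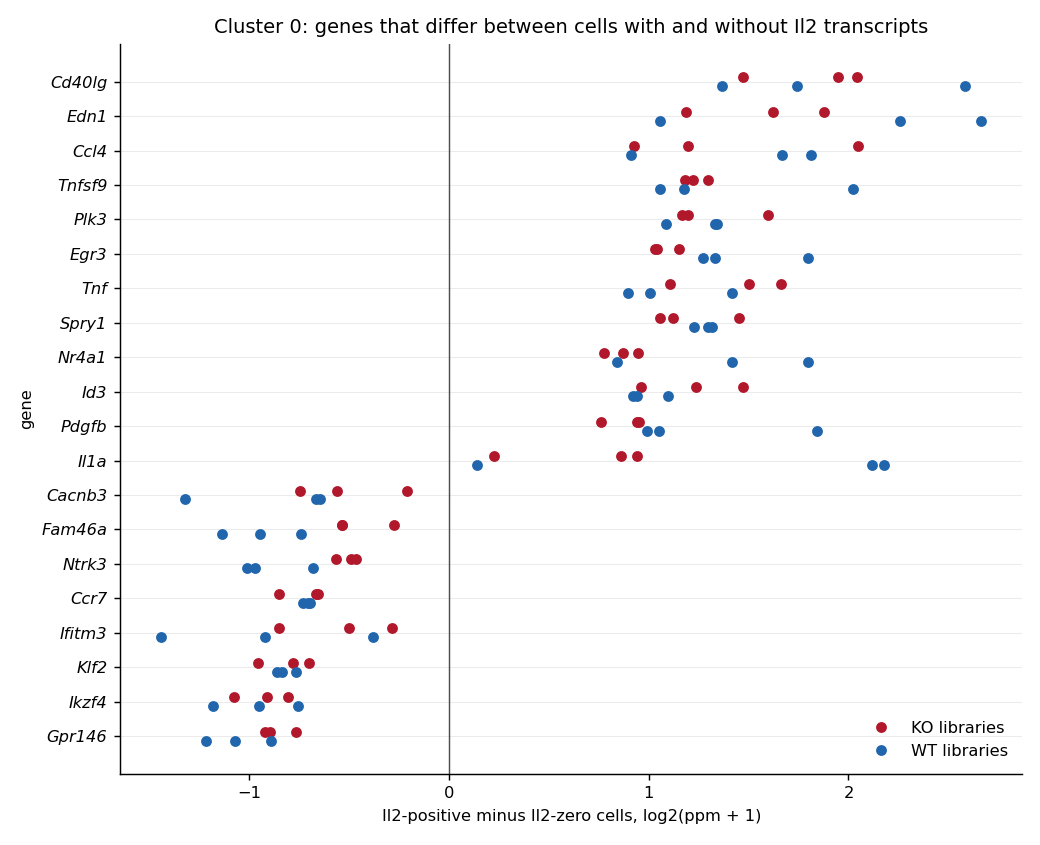
Difference between Il2-positive and Il2-zero cells of cluster 0 on the log2(ppm + 1) scale, 1 red point per KO and 1 blue point per WT library, for the 12 genes with the largest called rises and the 8 with the largest called falls. All points of the first 12 genes lie right of 0 and all points of the other 8 left of 0.

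The other lists were counted in the same split, against 9.91% of all genes higher and 10% lower. Of 24 immediate early genes 13 rose and none fell (median 0.18 against -0.01 over all genes), with Egr2 (1.07), Dusp2 (1.07) and Egr1 (1.04) beside Egr3 and Nr4a1. Of 20 NF-kB genes 15 rose, led by Nfkbid (0.96), Tnfaip3 (0.80) and Nfkbia (0.69), and 2 fell, Bcl3 (-0.32) and Birc2 (-0.18). Of 11 TNF family ligands 8 rose, and Tnfsf10 (-0.45) fell. Of 30 receptor signalling genes 15 rose and 4 fell, with Malt1 (0.60) and Lcp2 (0.41) highest and Grap2 (-0.36) lowest; 2 fell without D. Of 31 MYC and ribosome biogenesis genes 15 rose, led by Myc (0.39), and Npm1 (-0.06) fell. Of 17 STAT5 response genes 7 rose and 8 fell. The rises were those of Lta (0.51), Myc (0.39), Bcl2l1 (0.26), Ccnd2 (0.21), Pim1 (0.20), Cish (0.18) and Tnfrsf4 (0.11). The falls were those of Socs2 (-0.58), Socs3 (-0.48), Bcl2 (-0.42), Socs1 (-0.28), Pim2 (-0.23), Il2ra (-0.21), Xbp1 (-0.15) and Ccnd3 (-0.10). Of 16 glycolysis genes 11 fell and none rose, with Slc16a3 (-0.34) and Eno1 (-0.22) lowest, and of 15 hypoxia response genes 9 fell and none rose, with Mt1 (-0.61) and Bnip3 (-0.52) lowest. Of 13 interferon response genes 6 fell and none rose, and 3 fell without D or F.

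The share of cluster 0 cells with at least 1 corrected count was compared for 9 genes by an exact 2-sided permutation test, whose smallest possible p with 3 against 3 libraries is 0.1. Jaml was found in 59.5 ± 1.22% of KO and 49.4 ± 2.23% of WT cells (SD, n = 3 each; exact permutation p = 0.1, adjusted 0.15), Cblb in 46.3 ± 3.71% of KO and 67.7 ± 1.19% of WT cells, and Dapl1 in 86.7 ± 3.77% of KO and 76.6 ± 1.57% of WT cells. Tmem176b was found in 57.9 ± 8.35% of KO and 68.8 ± 1.37% of WT cells, and Il9 in 65.4 ± 16.1% of KO and 29.6 ± 4.97% of WT cells; these groups do not overlap and have the same p. Il2 was found in 87.4 ± 6.35% of KO and 90.5 ± 2.16% of WT cells (permutation p = 0.6) and Tmem176a in 66.2 ± 9.33% of KO and 72.0 ± 2.46% of WT cells (p = 0.4). In the 24 cells of cluster 6, where mast cell genes are high, Il2 was found in 83.3%, Tmem176a in 58.3%, Tmem176b in 66.7%, Dapl1 in 66.7% and Il9 in 87.5%, against 12.5% for Jaml and 16.7% for Cblb. Median depth was 24759 UMIs in cluster 6 and 38179 in cluster 0. Free RNA can give counts in droplets whose cell does not express a gene, and what gave the counts in cluster 6 was not tested. Shares of Il2, Tmem176a, Tmem176b and Il9 near or below those of cluster 6 are therefore not read as expression.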

How the data were processed

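The deposited cell table, made by the authors, holds 27258 cells with sctransform-corrected counts for 17369 genes; per the file headers and values these are depth-corrected scores and were given no count model. Per the submitters' processing notes, Cell Ranger 3.0.2, Seurat 3.0.0 and mm10 were used. The table also gives the authors' cluster, library and genotype of each cell, the deposited raw UMI count per cell (at least 15006) and the deposited mitochondrial percent (at most 15.2). No raw count per gene was used, so doublets were not called and cells were not thinned. Corrected counts were summed per library and cell set, scaled to ppm and fitted as log2(ppm + 1) for genes averaging 5 ppm or more, with limma 3.58.1 in R 4.3.3 (trended prior variance, 2-sided, Benjamini-Hochberg over all genes tested, threshold 0.05). The Il2 split and the test of cluster 0 against clusters 1 to 5 used within-library differences. Single values used exact permutation tests (scipy 1.17.1). The fits were tested on simulated data. Coordinates are from GENCODE for mm10, matched for 17121 of 17369 symbols. The named genes are the defining genes, Cblb, Il9, Foxp3 and, by size of difference, the 12 largest called rises and falls without overlap (KO against WT), up to 15 highest and 12 lowest genes of 1 sign in all libraries (between clusters), 8 each way (gaps) and the 12 largest rises and 8 largest falls (Il2 split). Left out of these rankings were receptor variable segments and Y-linked, mitochondrially encoded and ribosomal protein genes. Genes without a name (Gm numbers, Rik or accession numbers) were left out too. Members of lists beyond the 6 largest were named after their values were seen. Members and lists were chosen with earlier results of these data known. The labels give no batch. A few genes of the lists are counted but not reported here by name.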

Additional observations from a re-analysis of the deposited data

Results flagged for a closer look

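For 18 of the genes described, the KO minus WT difference in cluster 0 differed from that in clusters 1 to 5 by limma on within-library differences (log2 scale, cluster 0 minus clusters 1 to 5). Below 0 were Ccl20 (-1.06), Il2 (-0.79), Tmem176b (-0.71), Cib2 (-0.70), Gadd45g (-0.68), Klrb1f (-0.62), Tmem176a (-0.62), Id2 (-0.60), Dapl1 (-0.49) and Jaml (-0.29). Of these, Il2, Tmem176b, Tmem176a, Dapl1 and Jaml are defining genes that helped to draw cluster 0, and the part of that in their gaps was not tested. Above 0 were Xcl1 (1.13), Pkib (1.04), Mcub (0.92), Fam46a (0.72), Efna5 (0.70), Gpr146 (0.67), Spsb1 (0.63) and Serpina3g (0.62). All of these calls except that of Pkib were lost under at least 1 alternative. Pkib had no test against cluster 4 alone, where its KO minus WT difference was 1.09, against 1.04 in cluster 0. The share of each of clusters 1 to 5 among the cells set against cluster 0 differs between KO and WT libraries. The part of these shares in the gaps was not tested beyond the alternatives with equal weights and single clusters.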

How the results depend on the processing

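Of 28 named genes called between KO and WT in cluster 0, 24 kept their call in all 14 alternatives; Jaml, Ly6a, Sema4f and Klrb1f did not. Leaving out each library in turn gave 283 to 1399 genes higher and 314 to 1247 lower. The difference of Il2, not called, turned to -0.055 near the median depth, -0.30 with logarithms averaged over cells, -0.003 without A and -0.055 without F. The count of genes whose genotype difference depended on the cluster was 80 with no filter on low values, 228 near the median depth, 47 with no trend in the prior variance, 152 at equal weight, 27 against cluster 4 alone and 120 to 457 without each library in turn. Of its 18 named calls, 17 were lost under at least 1 alternative. That of Pkib was not, but Pkib had no test against cluster 4. Its KO minus WT difference was 1.09 in cluster 4 and 1.04 in cluster 0. Against cluster 4 alone the sign turned for Tmem176a (0.12), Dapl1 (0.19), Tmem176b (0.071), Jaml (0.036; 0.021 with logarithms averaged over cells), Xcl1 (-0.63), Fam46a (-0.46), Efna5 (-0.21), Serpina3g (-0.044), Ccl20 (0.40; 0.33 at equal weight), Gadd45g (0.0022) and Id2 (0.089). The cause was not tested. Of 20 named genes of the Il2 split 18 kept their call. Ifitm3 lost it near the median depth (-0.51, limma adjusted p = 0.0929) and Il1a with no filter (limma adjusted p = 0.0874). With no filter 541 genes were higher and 449 lower, and near the median depth 375 were lower. The difference in share of cells with Il2 ranged from -5.51 to 0.48 points and with Trat1 from -1.45 to 7.73 points without each library in turn. No paired analysis was possible because the library names carry no replicate numbers. Genes averaging under 5 ppm in cluster 0, such as Foxp3, had no limma test of KO against WT there.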
